A study of Mus musculus with 6 samples.

Results

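The immunoglobulin superfamily adhesion molecules described here are 10 genes, Vcam1, Icam1, Ncam1, Ncam2, L1cam, Nrcam, Alcam, Hepacam, Bcam and Cadm1, taken as the rows of the deposited expression table that carry these symbols, 10 of 43383 rows. Their mRNA was measured by RNA-seq in upper-layer astrocytes (ULAs, layers II–IV) and deep-layer astrocytes (DLAs, layers V and VI), both sorted by FACS as GFP-positive cells from the somatosensory cortex of male Aldh1l1-eGFP mice at 4 weeks of age. All animals carried the transgene, in which the Aldh1l1 promoter drives GFP in astrocytes, and none was treated. Each of 3 brains gave a ULA and a DLA library, so that there were 6 libraries in all and the comparison was made within brains. Layer I, the meninges, the corpus callosum and the boundary between layers IV and V had been discarded during dissection, so the comparison does not cover astrocytes of these regions.

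Cell adhesion molecules of this family carry immunoglobulin-like domains outside the cell, most of them on a membrane-spanning stem, and hold neighbouring cells together by binding either a copy of themselves or a different partner on the opposing membrane. Neural members such as the NCAM, L1 and CADM proteins act in axon growth and synapse formation, whereas VCAM and ICAM proteins are best known as ligands that leukocyte integrins grip on inflamed endothelium. In astrocytes, HepaCAM (also called GlialCAM) is known as the binding partner of the membrane protein MLC1 and the chloride channel ClC-2 at cell contacts and vascular endfeet.

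The values are RPKM, a read number divided by the length of the mRNA and by the mapped reads of the library, so that levels can be compared between genes as well as between libraries, and 3 values given for a layer are always those of brains 1, 2 and 3 in this order. Depth, read from the size of the smallest steps of the values, was 24.4 to 26.7 M reads in ULAs and 19.7 to 29.6 M reads in DLAs. Astrocyte markers were abundant in every library (summed RPKM of 12 genes between 11220 and 12849), whereas 9 of 10 neuronal markers, 6 of 6 markers of oligodendrocyte precursors and 9 of 9 endothelial markers averaged under 1 RPKM. Oligodendrocyte markers were present and uneven, with a summed RPKM of 88.8 to 183.8 in ULAs and 180.0 to 287.6 in DLAs, highest in the DLAs of brain 3. Each of the 7 tested had the higher mean in DLAs. For 6 of them the limma adjusted p was under 0.05, against 0.914% of all rows with the higher level in DLAs. Haemoglobin rows summed to 0 to 0.98 RPKM in ULAs and to 14.5 to 74.8 RPKM in DLAs, again with the DLAs of brain 3 highest.

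The levels of the adhesion molecules spanned the full range from near the top of the transcriptome to almost nothing. Hepacam (mean of 324.4 RPKM over the 6 libraries) and Cadm1 (322.3 RPKM) led, above 98.7% of the 13999 rows tested, and were followed by Vcam1 (175.2), Ncam1 (150.4) and Nrcam (68.9). Ncam2 (19.9), Alcam (18.3) and Bcam (11.8) formed a lower tier, Icam1 averaged 0.328 RPKM and L1cam was listed at 0 in 4 of 6 libraries. Hepacam and Cadm1 did not differ beyond their spread, with Hepacam the higher in 4 of 6 libraries, and neither did Ncam2 and Alcam. Vcam1 and Ncam1 overlapped across libraries, as did Alcam and Bcam, but Vcam1 exceeded Ncam1 and Alcam exceeded Bcam within each of the 6 libraries. All other neighbours in this order were separated, the closest being Cadm1 and Vcam1 at a ratio of means of 1.84.

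**Figure D1:**
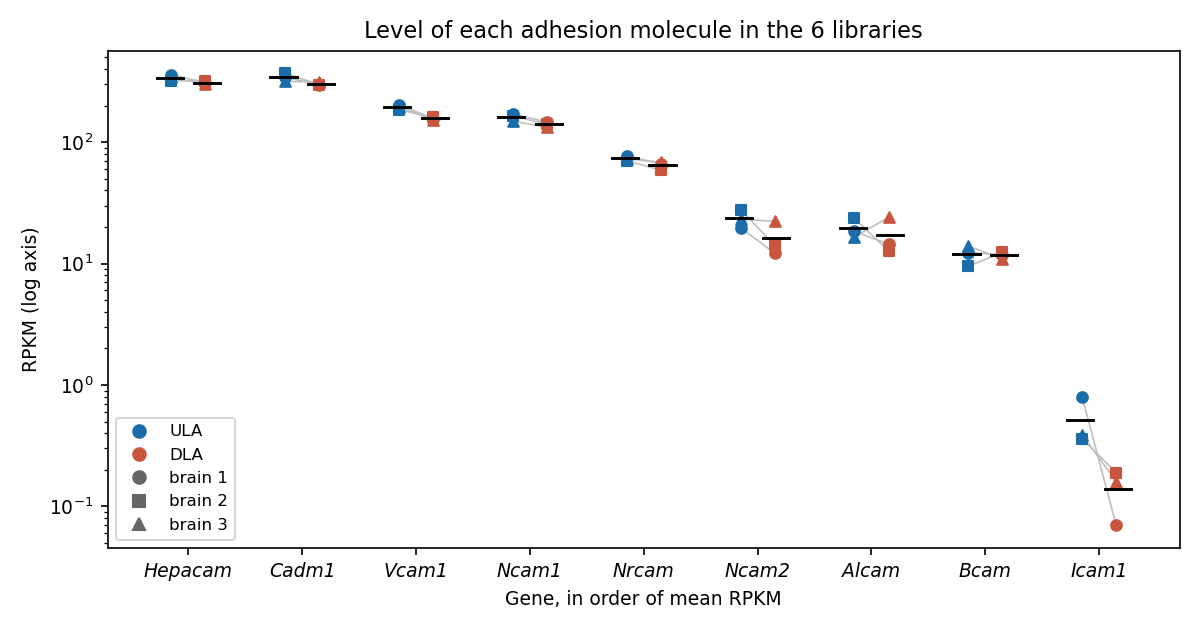
RPKM (log axis) of 9 adhesion molecules in the ULA (blue) and DLA (red) libraries of brains 1, 2 and 3 (circles, squares and triangles), with grey lines joining the layers of 1 brain and black bars for the mean of 3 libraries. The genes run from Hepacam at about 324.4 RPKM down to Icam1 at 0.328 RPKM, and L1cam, listed at 0 in 4 libraries, is left out because 0 has no place on a log axis.

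The RefSeq promoter sequences on GRCm38.p6 are shown for Hepacam, which led together with Cadm1, and for Icam1, the lowest of those with reads in every library. They cover 250 bases upstream of the start and are read 5′ to 3′ on the strand of the gene. Capitals mark the only match in Icam1 to GGAAATTCC, a κB element such as bound by NF-κB, and the only match in Hepacam to TTGGCA, a core of the sites bound by nuclear factor I (NFI), with both strands searched. The Icam1 sequence lies at chr9:21015690-21015939 (plus strand) and the Hepacam sequence at chr9:37367356-37367605 (plus strand).
Icam1: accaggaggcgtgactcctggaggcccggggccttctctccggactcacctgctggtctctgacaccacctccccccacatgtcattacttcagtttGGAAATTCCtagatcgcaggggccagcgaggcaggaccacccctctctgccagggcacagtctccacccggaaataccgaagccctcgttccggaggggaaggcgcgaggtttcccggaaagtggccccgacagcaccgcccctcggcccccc
Hepacam: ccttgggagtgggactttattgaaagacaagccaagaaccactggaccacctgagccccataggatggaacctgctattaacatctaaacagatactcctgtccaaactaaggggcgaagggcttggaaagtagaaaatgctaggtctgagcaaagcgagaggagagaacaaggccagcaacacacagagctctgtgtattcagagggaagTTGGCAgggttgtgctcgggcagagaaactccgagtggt

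The κB element begins 153 bases before the start of Icam1, and 0.286% of the 32851 promoters in the table hold these letters in a window of the same length. The NFI core begins 39 bases before the start of Hepacam and is held by 12.3% of them. Of the 7 adhesion molecules with an entry, the 5 others (Ncam2, L1cam, Nrcam, Alcam and Bcam) held neither. Hepacam, the most abundant of these 7, had 4 CpG dinucleotides in its window, the fewest of the 7, against 15 in Icam1, 32 in Ncam2 and a median of 6 over all promoters. These letters are a description of the sequence, and no factor was measured on it.

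Layers were tested by limma, using log2(RPKM + 1), for the 13999 rows with a mean of at least 1 RPKM, with the brain as a block and Benjamini-Hochberg adjustment over all rows. Icam1 and L1cam fell below this level, and 0 of the other 8 adhesion molecules passed at an adjusted p under 0.05, against 1.63% of all rows (0.714% with the higher level in ULAs, 0.914% with the higher level in DLAs). With no adjustment, at p under 0.05, Ncam2 and Vcam1 were higher in ULAs, 2 of 8 genes against 5.64% of all rows. The log2 fold changes (ULA over DLA) of the 8 genes ran from 0.01 for Bcam to 0.55 for Ncam2, with a median of 0.20, whereas the median of all rows tested was −0.03 and 45.0% of these rows lay above 0. In 4 of the 8, Vcam1, Ncam1, Nrcam and Cadm1, every ULA value was above every DLA value, which held for 6.59% of all rows. The opposite order held for 0 of the 8 and for 9.27% of all rows. Their mRNAs are long (median of 4673 bases against 2444 over all rows), and long mRNAs leaned towards ULAs in each brain. After a correction for mRNA length the median was 0.13 against −0.01 for all rows, and 8 of 8 remained above 0. The genes were chosen with earlier results known, so these counts describe the list and do not test it. In bulk RNA of sorted cells, fewer cells expressing a gene and less RNA per cell cannot be told apart.

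**Figure D2:**
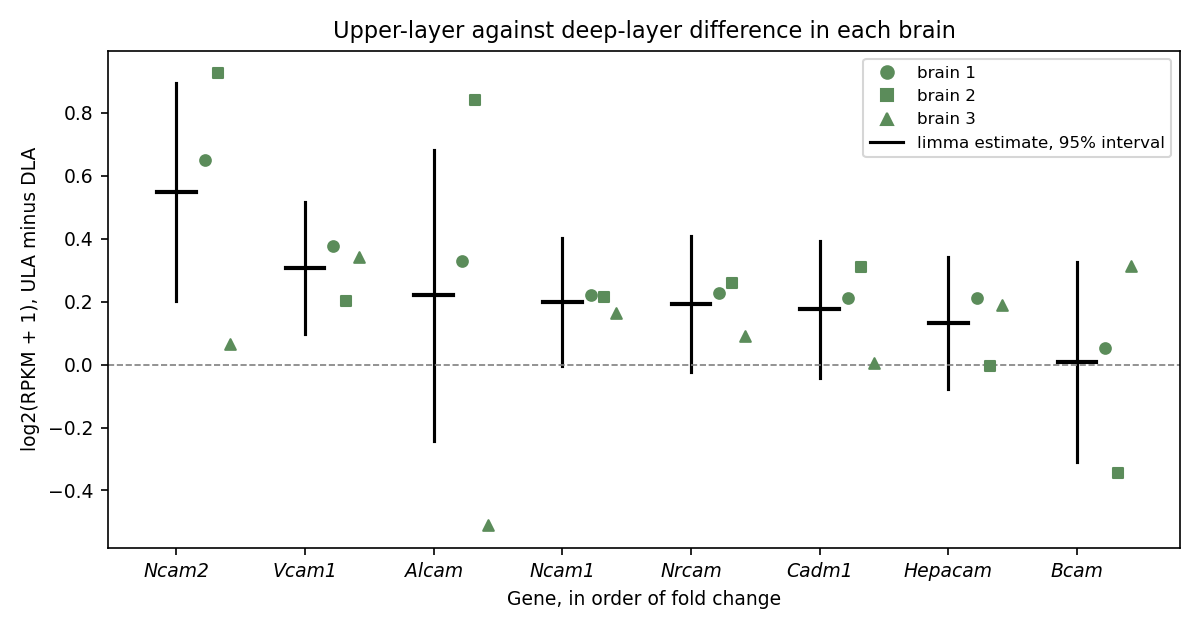
Difference in log2(RPKM + 1), ULA minus DLA, for the 8 adhesion molecules tested, with the limma estimate and its 95% interval (black) and the difference in each brain (green circles, squares and triangles for brains 1, 2 and 3). The brains lie close together for Ncam1 and Nrcam and far apart for Alcam, whose difference is above 0 in brains 1 and 2 and below 0 in brain 3.

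**Figure D3:**
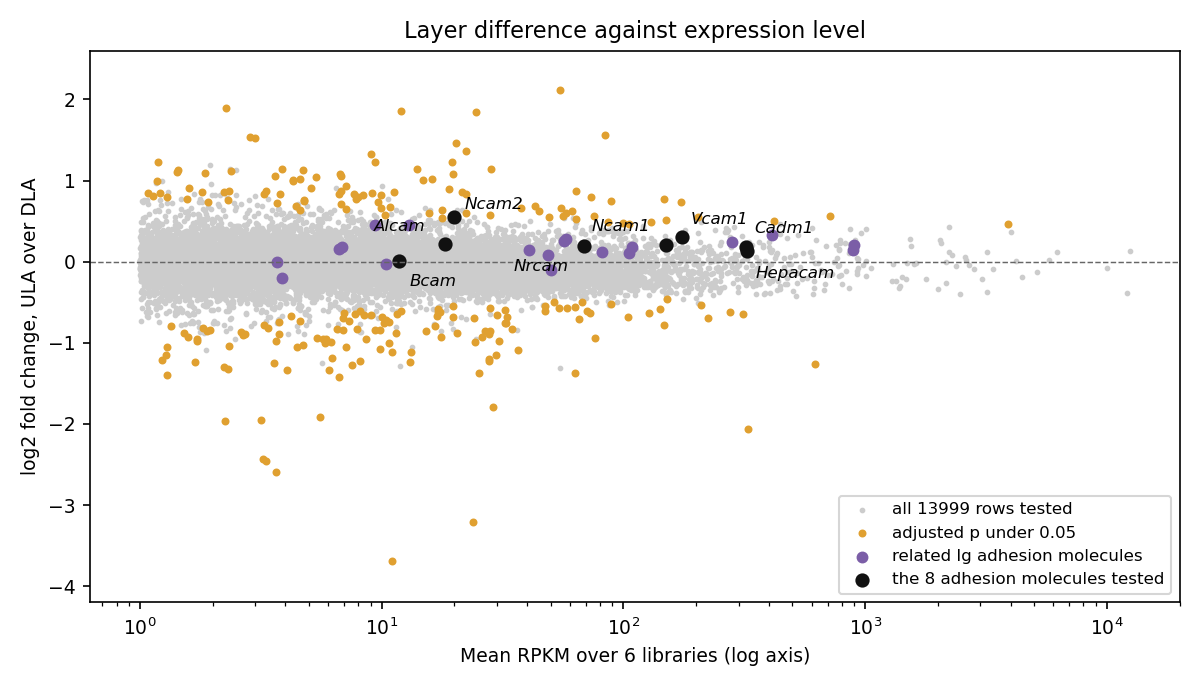
Log2 fold change (ULA over DLA) against mean RPKM (log axis) for the 13999 rows tested (grey), those with an adjusted p under 0.05 (orange), the 8 adhesion molecules (black, named) and the related immunoglobulin adhesion molecules (purple). The 8 genes lie between 0.01 and 0.55, and 0 of them are among the orange rows.

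The neural cell adhesion molecules Ncam1 and Ncam2 are paralogs that bind copies of themselves on the opposing membrane. Ncam1, on the minus strand of chromosome 9 from 49310251 to 49607174 (mm9) with 20 exons, was measured at 170.62, 163.78 and 148.49 RPKM in ULAs and at 146.06, 140.9 and 132.56 RPKM in DLAs. The layers did not overlap, and the ULA/DLA ratio was nearly the same in each brain, at 1.17, 1.16 and 1.12. The mean was 161.0 ± 11.3 (SD, n = 3) against 139.8 ± 6.81 RPKM, a log2 fold change of 0.20 (SE 0.09, limma adjusted p = 0.31). The residual spread, what is left after brain and layer, was among the lowest 1.94% of all rows. A similar ratio (mean 1.15 ± 0.0262) thus recurred in every brain without passing the test. Ncam1 has the longest mRNA of the 10 genes (9429 bases), and with the length correction its log2 fold change was 0.09 (adjusted p = 0.738). The row joins 3 RefSeq transcripts, and the membrane-spanning and lipid-anchored forms of NCAM cannot be separated in it.

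A row of the opposite strand, ENSMUSG00000079564 (a predicted gene), shares 254 exon bases with Ncam1, which are 20.3% of its own length and 2.69% of the Ncam1 mRNA. It was listed at 434.74, 394.11 and 382.76 RPKM in ULAs and at 360.74, 362.16 and 330.49 RPKM in DLAs, higher per length than Ncam1 itself. Its log2 fold change was 0.20 (SE 0.09, limma adjusted p = 0.309), the same as that of Ncam1 to 2 decimals. The libraries do not record the strand, so reads of the shared bases cannot be assigned to either gene.

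Ncam2, on the plus strand of chromosome 16 from 81200942 to 81624532 (mm9), had the largest difference of the 8 genes. It was measured at 19.69, 27.78 and 23.3 RPKM in ULAs and at 12.17, 14.15 and 22.21 RPKM in DLAs. ULAs were higher in 3 of 3 brains, but the DLA value of brain 3 lay among the ULA values, and the ratio was 1.62, 1.96 and 1.05. With 23.6 ± 4.05 (SD, n = 3) against 16.2 ± 5.32 RPKM, the log2 fold change was 0.55 (SE 0.16, 95% interval 0.20 to 0.90, limma adjusted p = 0.124). Without brain 3 it was 0.79 with an adjusted p of 0.000256 (0.000256 to 0.475 across alternatives), whereas it was 0.36 (adjusted p = 0.329) without brain 2 and 0.50 (0.313) without brain 1. In the setting without brain 3, 426 of all rows, or 3.04%, passed with the higher level in ULAs, against 100 with all brains.

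The rows whose course over the 6 libraries was most like that of Ncam2 were 100038349 (a predicted gene listed from a cDNA clone), Kcnq3 and Emx2os. Their centred log2 values differed from those of Ncam2 by a root mean square of 0.0745, 0.0987 and 0.109, against a median of 0.439 over all rows. Kcnq3, which encodes a voltage-gated potassium channel subunit, was at 61.84, 85.69 and 69.68 RPKM in ULAs and at 41.33, 38.91 and 73.9 RPKM in DLAs, with brain 3 again apart from the other two. Emx2os, an antisense RNA of the Emx2 locus, was at 21.63, 24.41 and 20.29 RPKM in ULAs and at 12.09, 13.83 and 21.41 RPKM in DLAs. With 6 libraries from 3 brains this likeness is a description.

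The L1 family was represented by Nrcam, whose protein binds ankyrin inside the cell and contactins and other neural adhesion molecules outside it, and by L1cam, which promotes axon growth. Nrcam, on the plus strand of chromosome 12 from 45429872 to 45702833 (mm9) with 31 exons, was at 77.36, 70.45 and 72.82 RPKM in ULAs and at 65.89, 58.7 and 68.38 RPKM in DLAs. The lowest ULA value, that of brain 2, was above the highest DLA value, that of brain 3. The mean of 73.5 ± 3.51 (SD, n = 3) against 64.3 ± 5.03 RPKM gave a log2 fold change of 0.19 (SE 0.10, 95% interval −0.02 to 0.41, limma adjusted p = 0.358), which was 0.09 (adjusted p = 0.692) with the length correction. L1cam, on the minus strand of chromosome X from 71099119 to 71126173 (mm9), was listed at 0 in both layers of brains 1 and 2, at 0.01 RPKM in the ULAs of brain 3 and at 0.03 RPKM in the DLAs of brain 3. The last of these values rests on 5 or 6 reads, and a value listed at 0 stands for 0 or 1 read, where a count of 0 allows up to 0.0213 to 0.0289 RPKM (3 reads, counting error only). No layer difference of L1cam was detectable at this depth.

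Summed neuronal markers were 7.29 to 7.68 RPKM in ULAs and 5.27 to 7.9 RPKM in DLAs, with Snap25 making up most of the sum (4.87 against 4.24 RPKM) and the other 9 genes under 1 RPKM each. These sums overlapped between the layers. Tubb3 (0.2, 0.38 and 0.42 against 0.17, 0.08 and 0.09 RPKM) and Rbfox3 (0.4, 0.29 and 0.25 against 0.15, 0.23 and 0.07 RPKM) had every ULA value above every DLA value. Slc17a7 had the opposite order, with 0.48, 0.3 and 0.49 RPKM in ULAs against 0.57, 0.6 and 0.61 RPKM in DLAs. In ULAs the neuronal sums of 7.29, 7.68 and 7.63 RPKM stood beside 19.69, 27.78 and 23.3 RPKM of Ncam2. In DLAs the sums of 6.49, 7.9 and 5.27 RPKM stood beside 12.17, 14.15 and 22.21 RPKM of Ncam2. The part of neuronal RNA in the differences of Ncam1, Ncam2 and Nrcam was not tested. Markers of oligodendrocyte precursors, cells known to carry NCAM, summed to 0.52 to 1.02 RPKM in ULAs and 0.43 to 0.75 RPKM in DLAs.

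Hepacam, on the plus strand of chromosome 9 from 37175191 to 37194156 (mm9) with 7 exons, was measured at 357.83, 319.09 and 341.25 RPKM in ULAs and at 308.62, 320.18 and 299.3 RPKM in DLAs. ULAs were higher in brains 1 and 3, and in brain 2 the layers were level (ratio 0.997). With 339.4 ± 19.4 (SD, n = 3) against 309.4 ± 10.5 RPKM, the log2 fold change was 0.13 (SE 0.09, limma adjusted p = 0.517). The 95% interval was −0.08 to 0.34, and the estimate was 0.23 under quantile normalization and 0.20 without brain 2. Its partner Mlc1 was still more abundant, at 614.1 ± 38.6 in ULAs and 592.3 ± 35.4 RPKM in DLAs. The log2 fold change of Mlc1 was 0.05 (SE 0.09, limma adjusted p = 0.829), and it was −0.0006 without brain 3 and 0.12 without brain 2. Clcn2, which encodes ClC-2 and was named after its values were seen, had 65.5 ± 9.58 and 58.9 ± 4.36 RPKM (log2 fold change 0.14, limma adjusted p = 0.527). Of the 3 components 0 passed, against 1.63% of all rows.

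Cadm1 encodes a synaptic and epithelial adhesion molecule (also called SynCAM or nectin-like protein) that binds itself and other CADM proteins. On the plus strand of chromosome 9 from 47338435 to 47661468 (mm9), it was at 342.75, 368.08 and 315.56 RPKM in ULAs and at 295.78, 296.95 and 314.39 RPKM in DLAs. The lowest ULA and the highest DLA value, both of brain 3, were almost equal, and the ratio was 1.16 in brain 1, 1.24 in brain 2 and 1.004 in brain 3. The mean was 342.1 ± 26.3 (SD, n = 3) against 302.4 ± 10.4 RPKM, with a log2 fold change of 0.18 (SE 0.10, limma adjusted p = 0.405) that was 0.11 without brain 2. Gm10677, a predicted gene of the opposite strand that shares 220 exon bases with Cadm1 (5.01% of its mRNA), was at 180.7 ± 4.30 and 173.9 ± 4.70 RPKM (log2 fold change 0.06, limma adjusted p = 0.807). Among the other CADM genes, Cadm2 was also abundant, at 93.82, 131.4 and 100.87 RPKM in ULAs against 99.67, 82.34 and 122.57 RPKM in DLAs (log2 fold change 0.10, limma adjusted p = 0.798), Cadm4 had 12.05, 7.35 and 10.63 against 11.18, 5.52 and 15.91 RPKM (−0.03, adjusted p = 0.954) and Cadm3 averaged 0.342 RPKM over the 6 libraries. The direction for Cadm2 and Cadm4 turned with the correction for mRNA length and with a brain left out.

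Vcam1 and Icam1 encode ligands of leukocyte integrins, α4β1 for VCAM-1 and αLβ2 and αMβ2 for ICAM-1. They are textbook targets of NF-κB in endothelium, yet in these astrocytes Vcam1 averaged 175.2 RPKM and Icam1 0.328 RPKM, both per length. Vcam1, on the minus strand of chromosome 3 from 115812938 to 115832606 (mm9) with 9 exons, was measured at 202.94, 184.41 and 194.37 RPKM in ULAs and at 156, 160.2 and 153.14 RPKM in DLAs. The layers were well separated, with ratios of 1.30, 1.15 and 1.27, and each value rests on 10701 to 17635 reads. The log2 fold change was 0.31 (SE 0.09, 95% interval 0.10 to 0.52, limma adjusted p = 0.15), and it passed only under quantile normalization (0.40, adjusted p = 0.0431, with 0.0431 to 0.853 across alternatives). In that setting 138 of all rows (0.986%) passed with the higher level in ULAs and 103 in DLAs, against 100 and 128 as deposited.

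Icam1, on the plus strand of chromosome 9 from 20820404 to 20833240 (mm9) with 7 exons, was near the limit of detection, with the higher values in ULAs. It was at 0.8, 0.36 and 0.39 RPKM in ULAs (50, 24 and 27 reads) and at 0.07, 0.19 and 0.16 RPKM in DLAs (5, 10 and 13 reads). Every ULA value was above every DLA value, as for 5.27% of the 27963 rows with any reads, and the ratio of brain 1 (11.4) was far above those of brains 2 and 3 (1.89 and 2.44). Without a filter on low RPKM the difference on the log2(RPKM + 1) scale, which understates the change of such low values, was 0.40 (SE 0.13, limma unadjusted p = 0.0338, adjusted p = 0.472). Of these 27963 rows, 4.02% had an unadjusted p under 0.05 towards ULAs and 5.99% towards DLAs. A row of the opposite strand, ENSMUSG00000091118, shares 490 exon bases with Icam1 (19.3% of its mRNA) but had at most 0.15 RPKM.

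Icam1 mRNA is carried by several other cell types, so their markers are given beside it. Endothelial markers summed to 0.96 to 1.34 RPKM in ULAs and 0.28 to 3.71 RPKM in DLAs, with the highest sum in the DLAs of brain 1. Microglial markers summed to 14.3 to 15.7 RPKM in ULAs and 9.28 to 13.0 RPKM in DLAs, of which P2ry12 made up most (12.1 against 9.35 RPKM), while the other 7 genes averaged under 1 RPKM each. Markers of mural cells summed to 15.2 to 21.9 RPKM in ULAs and 11.2 to 17.9 RPKM in DLAs, with 2 of 6 over 1 RPKM. Pdgfrb made up most of this sum (14.9 against 14.0 RPKM), which was highest in the ULAs of brain 1, where Icam1 was also highest. Rgs5, a pericyte marker, had 1.98, 2.06 and 2.7 RPKM in ULAs, lowest in brain 1, and 1.01, 0.75 and 0.93 RPKM in DLAs. It was 1 of 2 mural markers tested that passed, with the higher level in ULAs. Fibroblast markers summed to 3.07 to 4.1 RPKM in ULAs and 4.95 to 6.27 RPKM in DLAs. The part of endothelial, microglial, mural and fibroblast RNA in the Icam1 difference was not tested.

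The integrin genes that pair with these ligands were uneven. Itgb1, the β1 chain, was at 35.56, 32.81 and 30.07 RPKM in ULAs and at 27.3, 25.95 and 25.53 RPKM in DLAs, without overlap (log2 fold change 0.31, SE 0.10, limma unadjusted p = 0.0137, adjusted p = 0.185), and was singled out after its values were seen. Itga4, Itgb7, Itgal, Itgam and Itgb2 each averaged at most 0.16 RPKM, so that the α4, β7 and leukocyte β2 chains were close to the limit of detection in both layers.

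Alcam, a homophilic adhesion molecule that also binds CD6 on lymphocytes, had a layer difference that changed direction between brains. On the minus strand of chromosome 16 from 52249109 to 52453110 (mm9), it was measured at 18.39, 23.54 and 16.55 RPKM in ULAs and at 14.44, 12.69 and 24 RPKM in DLAs. ULAs were higher in brains 1 and 2 (ratios 1.27 and 1.85) and lower in brain 3 (0.69), and its residual spread was above that of 97.9% of all rows. The log2 fold change of 0.22 (SE 0.21, 95% interval −0.24 to 0.68, limma adjusted p = 0.639) turned to −0.09 without brain 2. Without brain 3 it was 0.59 with an adjusted p of 0.00955 (0.00955 to 0.964 across alternatives), where 3.04% of all rows passed with the higher level in ULAs. A cDNA-clone row within Alcam on the same strand that shares no exon base with it, D330040H18 (listed as 320847), was likewise highest in the ULAs of brain 2 and the DLAs of brain 3, at 2.43, 4.54 and 3.53 RPKM in ULAs and at 2.65, 1.76 and 4.72 RPKM in DLAs. The DLAs of brain 3, in which Alcam was highest and Ncam2 higher than in the other DLAs, also held the highest oligodendrocyte and haemoglobin sums, and the part of these in the 2 values was not tested.

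Bcam encodes a receptor for the laminin α5 chain and is known as the Lutheran blood group protein. On the minus strand of chromosome 7 from 20341487 to 20355881 (mm9), it was at 12.31, 9.51 and 13.9 RPKM in ULAs and at 11.83, 12.33 and 10.98 RPKM in DLAs. The layers overlapped fully, with 11.9 ± 2.22 (SD, n = 3) against 11.7 ± 0.683 RPKM and a log2 fold change of 0.01 (SE 0.14, 95% interval −0.31 to 0.32, limma adjusted p = 0.983). Of all 8 genes its estimate was the nearest to 0, and it turned below 0 when brain 1 or brain 3 was left out. The gene of its ligand, Lama5, had 1.86 ± 0.837 RPKM in ULAs and 1.32 ± 0.486 RPKM in DLAs (log2 fold change 0.28, limma adjusted p = 0.408), and was named after its values were seen.

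A wider list of 38 related immunoglobulin adhesion genes, which leaves out the contactins, held 19 genes over the level tested, of which 0 passed in limma, against 1.63% of all rows, and 5 were higher in ULAs at an unadjusted p under 0.05, against 5.64% of all rows. Of these 19, 15 lay above 0, against 45.0% of all rows, with a median log2 fold change of 0.16 against −0.03 for all rows, and 16 lay above 0 under quantile normalization. The 5 genes were Chl1, Nfasc, Bsg, Nptn and Jam2, the last 2 named after their values were seen. Chl1, the close homolog of L1, was at 16.07, 14.1 and 14.89 RPKM in ULAs and at 11.83, 8.31 and 12.29 RPKM in DLAs (log2 fold change 0.46, SE 0.13, limma adjusted p = 0.116). Nfasc, which encodes neurofascin, was at 10.58, 12.99 and 9.38 RPKM in ULAs and at 6.94, 8.35 and 7.85 RPKM in DLAs (log2 fold change 0.45, SE 0.13, limma adjusted p = 0.122). In 4 of the 19 genes every ULA value was above every DLA value, against 6.59% of all rows. Both L1 family genes, Chl1 and Nfasc, were among them, as Nrcam was among the 8. With the length correction their log2 fold changes were 0.35 for Chl1 and 0.33 for Nfasc. Both passed without brain 3, with adjusted p-values of 0.0173 for Chl1 (0.0173 to 0.435 across alternatives) and 0.0197 for Nfasc (0.0197 to 0.657). In that setting 3.04% of all rows passed with the higher level in ULAs.

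The most abundant genes of this wider list were Ntm and Lsamp, GPI-anchored members of the IgLON family, and Bsg, which encodes basigin, a chaperone of monocarboxylate transporters. Ntm had 978.3 ± 293.7 RPKM in ULAs and 825.9 ± 38.0 RPKM in DLAs (SD, n = 3), and the ULAs of brain 2 alone reached 1302.36 RPKM. Its log2 fold change was 0.20 (limma adjusted p = 0.469), and 0.00068 without brain 2. Lsamp had 936.1 ± 149.0 against 843.4 ± 99.9 RPKM (log2 fold change 0.15, limma adjusted p = 0.62, and −0.05 without brain 2 and 0.31 without brain 3). Bsg was at 488.67, 413.16 and 473 RPKM in ULAs and at 357.46, 382.38 and 353.32 RPKM in DLAs, without overlap (log2 fold change 0.33, SE 0.10, limma adjusted p = 0.154). Leaving out brain 2 brought its adjusted p to 0.0327 and quantile normalization to 0.0321, the lowest of 0.0321 to 0.873 across alternatives. In these settings 111 and 138 of all rows passed with the higher level in ULAs, against 100 as deposited. The nearest relatives of Icam1 and Hepacam were almost absent, with Icam2, Icam5 and Hepacam2 averaging 0.04, 0.0333 and 0.055 RPKM.

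Of 20 genes whose products bind the adhesion molecules or modify them, 10 were tested. All 10 lay above 0, against 45.0% of all rows, with a median log2 fold change of 0.26 against −0.03. With the length correction the median was 0.19 against −0.01. In limma 0 passed, against 1.63% of all rows, and 4 were higher in ULAs at an unadjusted p under 0.05, against 5.64%. These were Itgb1, Fgfr1, Msn and Ank2, of which Itgb1, Fgfr1 and Msn were named after their values were seen. Fgfr1, a receptor tyrosine kinase through which NCAM signals, had 41.4 ± 6.01 RPKM in ULAs and 33.3 ± 4.46 RPKM in DLAs (log2 fold change 0.30, SE 0.10, limma adjusted p = 0.175). Ank2, an ankyrin of the kind that anchors the L1 family to spectrin, had 111.5 ± 17.2 against 90.6 ± 10.8 RPKM (log2 fold change 0.29, SE 0.12, limma adjusted p = 0.267). It passed when brain 3 was left out (adjusted p = 0.0235, with 0.0235 to 0.782 across alternatives), as did 3.04% of all rows towards ULAs. Its log2 fold change was 0.14 (adjusted p = 0.627) without brain 2 and 0.19 with the length correction. Of the ERM proteins, which link ICAM and L1 tails to actin, Ezr had 297.4 ± 39.6 against 259.8 ± 14.9 RPKM (log2 fold change 0.19, limma adjusted p = 0.393, and 0.10 without brain 3), and Msn had 7.37 ± 0.944 against 5.46 ± 0.240 RPKM (log2 fold change 0.37, SE 0.13, limma adjusted p = 0.196). The polysialyltransferases St8sia2 and St8sia4, which attach polysialic acid to NCAM, averaged 0.00333 RPKM and 0 RPKM, and Cd6, whose product is a lymphocyte partner of ALCAM, averaged 0.005 RPKM.

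**Figure D4:**
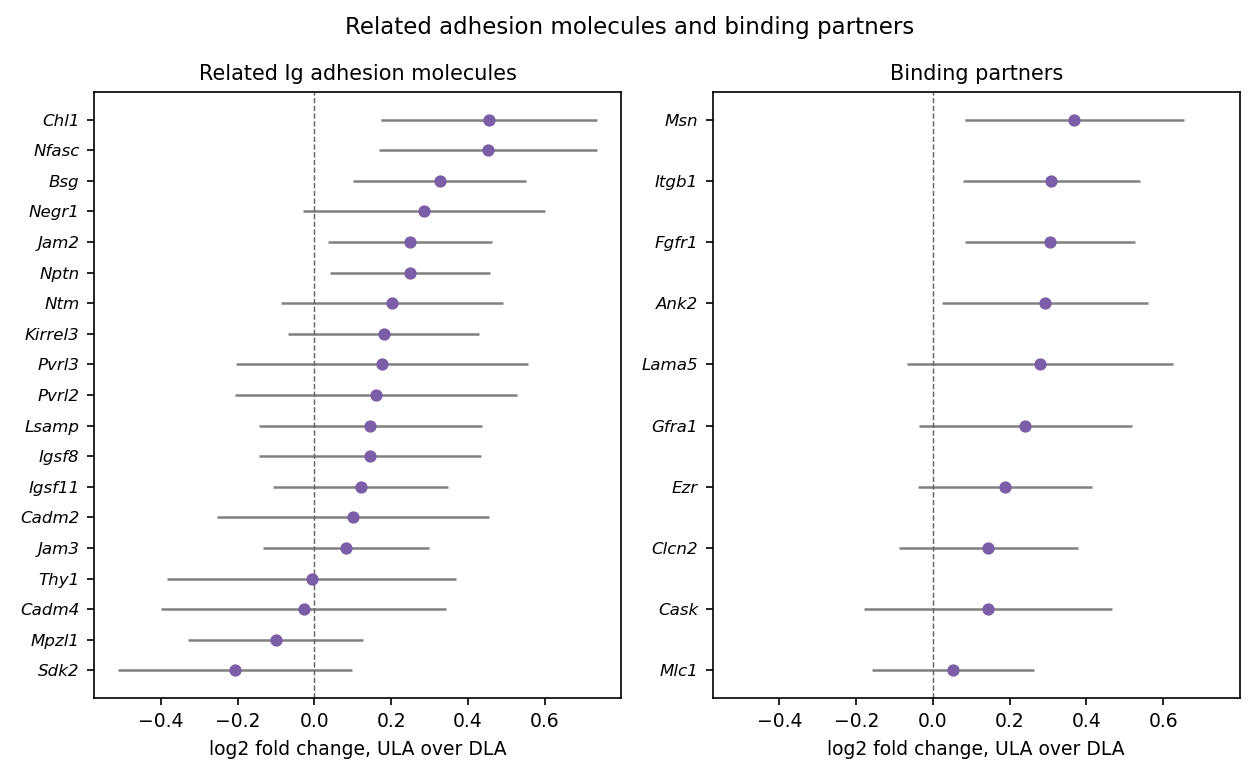
Log2 fold change (ULA over DLA, dots) with its 95% limma interval (lines) for the 19 related immunoglobulin adhesion molecules and the 10 binding partners that were tested. Chl1 (0.46) and Nfasc (0.45) stand highest among the related genes and Sdk2 lowest, and all 10 partners lie above 0, from 0.05 for Mlc1 to 0.37 for Msn.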

How the data were processed

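RNA of sorted astrocytes was amplified with the SMART-Seq kit, made into Nextera XT libraries, which do not keep the strand, and read from 1 end over 36 bases. Values are the RPKM per mRNA that the authors deposited, cut to 2 decimals. Per the labels, the processing notes name mm9, CASAVA 1.8.2 and bcl2fastq 1.8.4. The counting program is not given in the sources used here. Values times length summed to 1.03 to 1.04 per mapped read, so some reads count in more than 1 row. Depth was solved from rows of up to 500 bases, where 97.5% to 100% of the values were whole reads.

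Rows with a mean of at least 1 RPKM were tested on log2(RPKM + 1) with limma 3.58.1 (R 4.3.3; trend; 2-sided; Benjamini-Hochberg). The brain was a block, as in the paired test of the study. Same-brain libraries shared deviations from the mean of their layer (correlation over rows 0.422, 0.333 and 0.341; −0.199 to −0.16 between brains). An exact permutation test of 3 pairs cannot go below 0.25. Alternatives were no block, a pseudocount of 0.1, no filter, a filter of 5 RPKM, median centring, quantile normalization, no trend, a length correction (loess, span 0.5) and each brain left out.

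Genes named are the 10 members, their closest paralogs, the 3 most abundant genes of each list, genes that passed (0), and, by likeness, the rows closest to the member with the largest change. The members and lists were chosen with earlier results of these data known. Tables and figures were made with Python 3.11.15. Starts are given counted from 1. Promoters are from RefSeq (GRCm38.p6), with entries for 7 of the 10 genes. Read floors cover counting error only. Symbols were matched through RefSeq synonyms, and 1 haemoglobin gene had no row.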

Additional observations from a re-analysis of the deposited data

How the results depend on the processing

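Of 88 values of the 8 tested genes over 11 alternatives, 82 kept their direction and side of the threshold, 3 newly passed (Vcam1 under quantile normalization, Ncam2 and Alcam without brain 3) and 3 reversed (Alcam without brain 2, Bcam without brain 1, −0.0141, and without brain 3). Among the other 10 genes tested that the naming rule covers, 99 of 110 values stayed, 5 newly passed and 6 reversed, of which Cadm2 (−0.0127) and Cadm4 (0.0391) did so with the length correction. Over the fits that lack a brain, log2 fold changes ran from 0.359 to 0.789 for Ncam2, 0.109 to 0.260 for Cadm1, 0.000681 to 0.355 for Ntm, 0.136 to 0.431 for Ank2, −0.0909 to 0.585 for Alcam, −0.145 to 0.184 for Bcam, −0.0506 to 0.313 for Lsamp, −0.000637 to 0.122 for Mlc1, −0.182 to 0.291 for Cadm2 and −0.220 to 0.228 for Cadm4. The number of the 8 genes that passed was 1 under quantile normalization and 0 to 2 with a brain left out. Without the replicate block 0 of them passed, and 23 and 18 of all rows were higher in ULAs and DLAs, against 100 and 128 with it. The same counts over all rows were 65 and 79 without the trend, 77 and 77 with the length correction, 104 to 426 and 126 to 687 with a brain left out, and 0 and 0 with no filter on low RPKM, where 1124 and 1675 rows had an unadjusted p under 0.05 in limma. The cause of these shifts was not tested, except that more rows are adjusted over with no filter. Few reads stood behind Icam1 (5 to 50 in a library) and L1cam (0 to 6).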
